A study of Mus musculus with 24 samples.

Results

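Gene expression in sham-treated TM3 cells at 24 h was compared with that in sham-treated TM3 cells at 4 h. TM3 is a mouse Leydig cell line, that is, a line derived from the hormone-producing cells between the testis tubules. The comparison used 8 of the 24 arrays of the series, chosen by the group in the sample title, with 4 biological replicates of sham at 4 h and 4 of sham at 24 h. The sham cells had been detached, washed in buffer, filtered, suspended in a binding buffer and put into an electroporation cuvette like the exposed cells, but received no pulses. Each sample was 1 RNA preparation labelled with Cy3 on an array of its own. Sham cells taken at once (0 h, 4 arrays) and cells exposed to nanosecond pulsed electric fields (nsPEF) at 4 h and 24 h (4 arrays each) are given as values beside the sham results. The errors, adjusted p values and calls, though, rest on a spread estimated from all 24 arrays. All groups were the same line, in the same growth medium before treatment, and no group was a culture left undisturbed, so that each holds the effects of detachment and suspension. By the study's account the cells were in standard culture between treatment and harvest, while the plating for the arrays is not given in the sources used here.

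Cells that are taken off their dish lose the actin tension and the matrix contacts of spread cells, and both return as they attach and spread again. In that time growth factor and serum signals induce immediate-early genes and feedback inhibitors, and later the genes of ribosome building. The genes of DNA replication are transcribed mainly as cells pass from G1 into S phase, under E2F factors, and many genes of mitosis are transcribed later, in G2, through CHR and CCAAT promoter elements.

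Each time was hybridised on 1 slide of its own, so that in every value below the time and the slide cannot be told apart. Both sham groups took the same row of arrays on their slides. The 75th percentile of the intensity was 543 ± 163 (SD, n = 4) at 4 h and 479 ± 48.6 at 24 h (exact permutation test, two-sided, p = 0.657), and 59.6% ± 1.90 and 60.0% ± 0.826 of the probes were well above background (p = 0.657). Replicate 4 of 4 h stood apart, at 787 against 455 to 473 on the other 3 arrays of its group. Results that rest on this array are given with and without it. The RNA in a sample comes from all of its cells, so fewer cells of a kind and less RNA per cell cannot be told apart.

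Values are log2 signals minus the 75th percentile of the array, so that 0 stands for that percentile. A probe was tested where it was well above background on all 4 arrays of at least 1 of the 2 groups. Of 33043 such probes, limma called 20903 (63.3%) at an adjusted p under 0.05 (Benjamini-Hochberg), 10409 higher and 10494 lower at 24 h. With the brightest tested probe for each symbol, 15136 genes were compared, of which 5342 (35.3%) were higher and 5354 (35.4%) lower at 24 h. A call together with a difference of at least 2-fold was made for 1417 genes upward (9.36%) and 1258 downward (8.31%). The median size of the difference among called genes was 0.62 on the log2 scale. Euclidean distances showed the same separation, with a mean of 152 between the 2 times, 69.6 among the 4 h arrays and 58.7 among the 24 h arrays. The split of rises and falls depended on the scaling. The spike-in RNA lay 1.70 above the 75th percentile at 4 h and 1.08 at 24 h (two-sided p of 0.0286 by exact permutation, which no comparison of 4 arrays with 4 can go below). Scaled on it, the median difference of all genes moved from 0.011 to 0.63, and 10686 genes were higher and 1457 lower (88.0% of called genes higher against 49.9%). With the percentile taken over probes detected on all arrays the share was 60.4%. Directions below are those relative to the median of all genes, and a fall smaller than the spike-in shift becomes a rise on the spike-in scale.

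The largest rises and falls were sought among called genes measured on all 8 arrays whose groups do not overlap. Lack of overlap was common, at 10206 of 15136 tested genes. The largest rises from 4 h to 24 h were those of C1qtnf7, Cstad, Tifa, Ccng2, Cxcl10, Nfatc4, Neurl1b, Ifit2, Gm12522, Mrnip, Kank4 and Fbxo32, with log2 differences of 2.55 to 3.31. The secreted protein gene C1qtnf7 rose 9.88-fold (SE 0.16, adjusted p = 3.41e-13 from limma). Ccng2, a cyclin of cells that leave the division cycle, had log2 signals of -0.025, -0.36, 0.059 and -0.26 on the arrays of 4 h and 2.51, 2.67, 2.71 and 2.63 on those of 24 h. It rose by 2.77 (6.84-fold, SE 0.092, adjusted p = 1.32e-15). The chemokine gene Cxcl10 lay at 0.42, 0.15, 0.043 and 0.23 at 4 h and at 2.95, 3.02, 3.03 and 2.86 at 24 h. It rose by a mean of 2.75 (SE 0.077, adjusted p = 1.45e-16). At 0 h Cxcl10 had a mean of 3.66, and Ccng2 one of 2.07. Of these 12 genes, Mrnip, named for its binding to the MRN complex of DNA break repair, had the smallest adjusted p, with a rise of 2.58 (SE 0.07, adjusted p = 9.82e-17). Further upward, Klhl24, Vsir and Tbx6 were not well above background on any array of 4 h and were well above it on all 4 of 24 h. They were at least 17.3-fold, 13.2-fold and 11.4-fold higher at 24 h. For this, each 4 h array was taken at the higher of its own value and its lowest signal well above background. The genes were chosen by this difference in detection, so no p-value is set beside the folds. Gm2518 and 9530082P21Rik, whose spots lie in rows 376 and 14 of the 384 rows of an array, were at least 17.3-fold and 10.7-fold higher. They were chosen in the same way.

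The largest falls were deeper than the largest rises. Among them were those of Ngef, Nppb, Plet1, Serpinb2, Ptpn22, Il1rl1, Pmepa1, Kcnn4, Trim16, Ramp3 and Sprr1a, by 3.29 to 5.52 on the log2 scale, that is 9.8-fold to 46-fold. Nppb, which codes for the precursor of brain natriuretic peptide, lay at 1.64, 1.61, 1.41 and 1.52 on the arrays of 4 h and at -4.00, -3.69, -3.94 and -3.39 on those of 24 h. It fell by 5.30 (39.4-fold, SE 0.11, adjusted p = 2.94e-18 from limma) and had a mean of -4.11 at 0 h. Serpinb2, an inhibitor of plasminogen activators, was among the brightest of these genes, at 6.04, 6.11, 6.01 and 6.00 at 4 h against 1.03, 1.23, 1.17 and 1.31 at 24 h. The groups were 4.85 apart (28.9-fold, SE 0.058, adjusted p = 3.22e-22), with spreads of 0.049 and 0.12 (SD, n = 4). The interleukin 33 receptor gene Il1rl1 fell by 4.24 (SE 0.069, adjusted p = 8.33e-20), and Pmepa1, a feedback inhibitor of TGF-beta signalling, by 3.99 (SE 0.088, adjusted p = 4.24e-18). Il1rl1 remained above its 0 h mean by 1.27 at 24 h (adjusted p = 2.04e-11). Ngef, an exchange factor for small GTPases in row 25 of the array, had the largest difference, 5.52, but also the largest error of these genes (SE 0.66, adjusted p = 5.25e-07), since the error is set by all 24 arrays. Ptpn22 had a value on 3 of the 4 arrays of 24 h, and its spots lie in row 384. Sprr2h, Sema7a, Nipal1, Sh3gl3 and Havcr2 were well above background on all arrays of 4 h and on none of 24 h. They were at least 60.3-fold, 45.8-fold, 44.9-fold, 24.5-fold and 23-fold lower at 24 h. These genes too were chosen by the difference in detection, so no p-value is given.

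**Figure D1:**
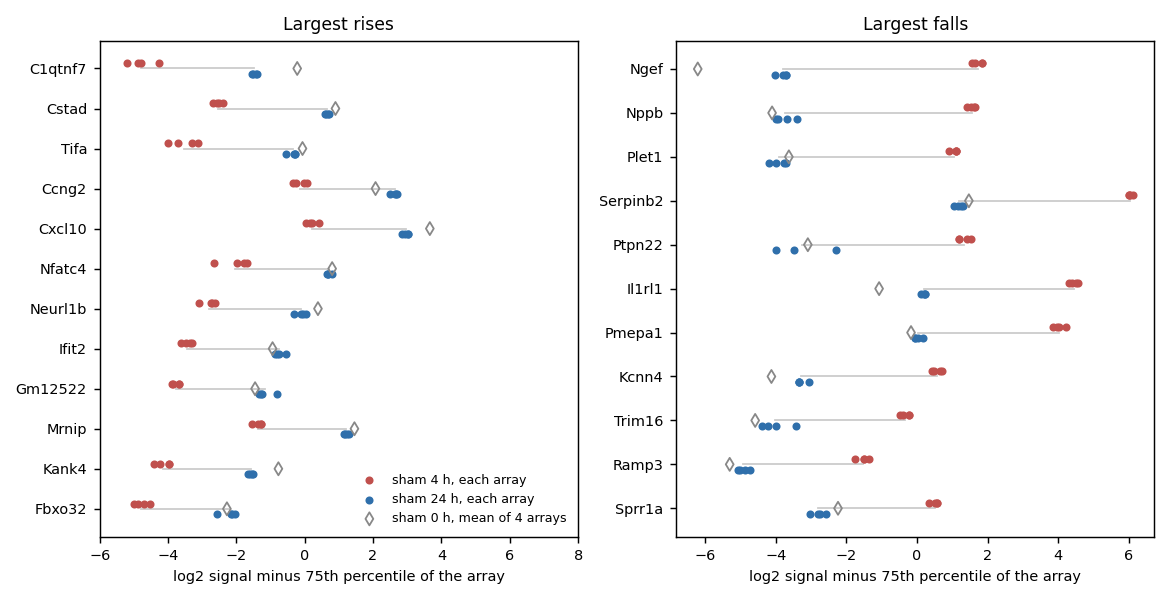
Log2 signal minus the 75th percentile of the array (x axis) for 12 genes with the largest rises and 11 genes among those with the largest falls from 4 h to 24 h. Each point is 1 array, red for sham at 4 h and blue for sham at 24 h, and open diamonds are the means of the 4 sham arrays of 0 h. The genes were chosen among those whose 2 times do not overlap, which was so for 10206 of 15136 tested genes.

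Genes of DNA replication were higher at 24 h. In the 6 lists of the division cycle combined (139 genes, each counted once), 123 were higher and 6 lower, with a median difference of 0.54 against 0.011 for all genes. On the percentile scale the median of the same genes was -0.045 between 24 h and 0 h, and 0.64 from 4 h to 24 h in nsPEF cells. Of the 23 genes of origin licensing and the replicative helicase, 18 rose (78.3%, against 35.3% of all genes) and 2 fell, with a median of 0.57. Mcm7, a helicase subunit, had log2 signals of 4.59, 4.50, 4.59 and 4.62 at 4 h and 5.35, 5.39, 5.34 and 5.39 at 24 h. The difference of 0.79 (1.73-fold, SE 0.041, adjusted p = 8.77e-13 from limma) was far above the spread within either group. Gmnn, the inhibitor of licensing, rose by 0.98, Gins2 and Cdc45, partners of the helicase, by 0.82 and 0.80, and Orc3 by 0.76. Another origin recognition gene moved the other way. Orc2 lay at 2.46, 2.45, 2.46 and 2.37 at 4 h and at 1.39, 1.37, 1.43 and 1.45 at 24 h, a fall of 1.03 (SE 0.047, adjusted p = 1.35e-13).

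Of the 30 genes of the polymerases and the replication fork, 29 rose and the other was not called, with a median of 0.62. The smallest difference was 0.11, so the mean of every tested gene of this list was higher at 24 h. Pola2, a subunit of the polymerase that makes primers, rose by 1.54 (2.92-fold, SE 0.12, adjusted p = 6.99e-10), Pole, the leading-strand polymerase, by 1.20, Pold1, the lagging-strand polymerase, by 0.97 and Lig1, which joins Okazaki fragments, by 0.97. Rfc2, of the clamp loader, rose by 0.93 and Uhrf1, which maintains DNA methylation behind the fork, by 0.82. Of 8 genes of deoxynucleotide synthesis, 7 rose and the other was not called (median 0.44). Thymidine kinase, Tk1, rose most, from 2.74, 2.64, 2.69 and 2.60 at 4 h to 4.12, 4.10, 4.15 and 4.20 at 24 h. This was a 2.78-fold change (SE 0.046, adjusted p = 5.26e-16), and the mean at 0 h was 4.19. The ribonucleotide reductase subunit genes Rrm1 and Rrm2 rose by 0.56 and 0.49, Dut by 0.52 and Tyms by 0.40.

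Genes of mitosis rose as well. All 46 tested genes of the spindle, kinetochore and cytokinesis were called, 43 higher and 3 lower, with a median of 0.55. Cenpk, a subunit of the inner kinetochore, rose by 1.45 (SE 0.056, adjusted p = 1.14e-14), the checkpoint kinase gene Bub1b by 1.32, the spindle pole gene Aspm by 1.28, Cenpf and Cenph by 1.16 and 1.13, and Ect2, which starts the cleavage furrow, by 1.13. Of 17 mitotic kinases and cyclins, 12 rose and 1 fell, and the median was 0.30. Mastl, a kinase that restrains the phosphatase opposing Cdk1, rose by 1.42 (SE 0.054, adjusted p = 9.73e-15) and the kinase genes Aurkb, Nek2 and Pkmyt1 by 0.95, 0.81 and 0.85. The phosphatase gene Cdc25c rose by 0.89. Cyclin B2, Ccnb2, had log2 signals of 3.71, 3.74, 3.76 and 3.74 at 4 h and of 4.32, 4.45, 4.45 and 4.55 at 24 h. It rose by 0.71 (SE 0.047, adjusted p = 4.76e-11) and on the percentile scale remained below its 0 h mean by 0.26 (adjusted p = 0.000167). The difference from 0 h is smaller than the spike-in shift between these times. Of 15 genes of condensin and cohesin, 14 rose and the other was not called (median 0.49). Among them Ncapd3 rose by 1.19, Ncapg by 1.04, Ncaph by 1.02, Ncapd2 by 0.96, Ncapg2 by 0.71 and the cohesin acetylase gene Esco2 by 1.02.

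The 250 bases before the start of 3 genes are shown, 1 from each of the licensing, mitotic and cholesterol lists, because they hold the motifs that the promoters of the lists were searched for. Capitals mark matches on either strand to E2F (TTTCCCGC or TTTGGCGC), CHR (TTTGAA), the CCAAT box or the E-box (CACGTG), of which none contains another. The sequences are from RefSeq (GRCm38.p6), 5′ to 3′ on the strand of the gene, which is the minus strand for all 3. Mcm7 lies at chr5:138171884-138172133, Ccnb2 at chr9:70421555-70421804 and Hsd17b7, a gene of cholesterol synthesis that fell, at chr1:169969206-169969455.
Mcm7: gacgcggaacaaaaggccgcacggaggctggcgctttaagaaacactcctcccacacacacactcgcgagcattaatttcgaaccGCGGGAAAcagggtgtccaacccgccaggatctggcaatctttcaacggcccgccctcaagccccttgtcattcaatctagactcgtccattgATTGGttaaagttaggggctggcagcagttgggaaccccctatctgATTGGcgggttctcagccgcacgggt
Ccnb2: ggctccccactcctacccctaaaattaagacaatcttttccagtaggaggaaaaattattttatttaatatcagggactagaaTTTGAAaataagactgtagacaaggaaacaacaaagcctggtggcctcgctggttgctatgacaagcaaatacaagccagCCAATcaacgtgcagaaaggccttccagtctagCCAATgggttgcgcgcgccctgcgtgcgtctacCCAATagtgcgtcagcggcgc
Hsd17b7: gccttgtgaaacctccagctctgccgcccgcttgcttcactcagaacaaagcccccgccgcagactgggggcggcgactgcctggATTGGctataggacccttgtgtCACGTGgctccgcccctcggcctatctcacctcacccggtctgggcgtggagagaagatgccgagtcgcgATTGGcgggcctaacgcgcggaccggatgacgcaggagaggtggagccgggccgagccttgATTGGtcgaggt
The Mcm7 sequence holds an E2F match 165 bases before the start and CCAAT matches at 72 and 26, and the Ccnb2 sequence a CHR match at 167 and CCAAT matches at 87, 54 and 21. The Hsd17b7 sequence holds CCAAT matches at 165, 73 and 12 and an E-box at 143. The E2F motif was in 26.1% of the 23 listed promoters of the licensing genes (18 genes matched), 3.03% of those of the polymerases and fork, 13.3% of those of DNA repair and 1.3% of all 32851 promoters of this length. The CCAAT box was in 90% of the 10 promoters of mitotic kinases and cyclins, 66% of the 47 of the spindle list, 60.6% of those of cholesterol synthesis, 30.6% of those of ribosome biogenesis and 33.8% of all. For CHR these shares were 30%, 29.8%, 6.06% and 6.94%, against 16% of all promoters. Replication and repair lists were also rich in CCAAT. It was in 56.5% of licensing, 54.5% of polymerase and fork, 57.1% of deoxynucleotide and 56.7% of repair promoters. For CHR these lists had 17.4%, 15.2%, 0% and 3.33%. Condensin and cohesin promoters had 41.7% for CCAAT and 50% for CHR. The E-box was in 18.2% of the promoters of cholesterol synthesis, 6.94% of those of ribosome biogenesis and 6.02% of all. The heat shock element GAANNTTC was in 26.1% of the promoters of heat shock proteins and 6.69% of all. Among promoters of tested genes the shares were 2.13% for E2F, 35.4% for CCAAT, 11.6% for CHR, 7.72% for the E-box and 5.33% for the heat shock element. Other lists differed as widely. The CCAAT box was in 0% of Notch, 70% of clock and 88.9% of unfolded protein response promoters. The E-box was in 0% of interferon promoters and 30% of both p53 target and clock promoters. E2F was in 0% of clock and 21.4% of splicing factor promoters. These matches describe letters in a window and not sites in use.

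DNA repair had the highest median among lists with over 1 tested gene, 0.66, with 32 of 39 genes higher, 2 lower and 13 higher by at least 2-fold (9.36% of all genes). Brca1, of homologous recombination, lay at 0.11, 0.062, 0.06 and -0.039 at 4 h and at 1.91, 1.96, 1.93 and 1.92 at 24 h. It rose 3.69-fold (SE 0.055, adjusted p = 2.48e-16 from limma). The glycosylase gene Neil3 rose most, by 2.03 (4.07-fold, SE 0.078, adjusted p = 1.26e-14). The recombination genes Rad54l, Rad54b and Brca2 rose by 1.78, 1.43 and 1.27. The G1 regulators were mixed, with 13 of 23 higher and 8 lower (56.5% and 34.8%, and 16 higher and 3 lower on the spike-in scale). The pocket protein gene Rbl2 rose by 2.23, the Cdk4 inhibitor gene Cdkn2d by 1.54 and E2f1 by 0.95, while cyclin D1, Ccnd1, fell by 0.93. The probes of the Cdk inhibitor gene Cdkn1a disagreed, the brightest falling by 1.43 and another rising by 0.47. Cdkn1c was at least 3.06-fold higher at 24 h. The p53 target genes were mixed too on the percentile scale, 11 higher and 9 lower of 23 (47.8% and 39.1%, against 35.3% and 35.4% of all genes). On the spike-in scale they were 15 higher and 4 lower, with a median of 0.77. Trp53inp1, Ddb2, Sesn1 and Bbc3 rose by 2.22, 1.76, 1.63 and 1.17, and Gadd45g and Aen fell by 2.20 and 1.52.

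**Figure D2:**
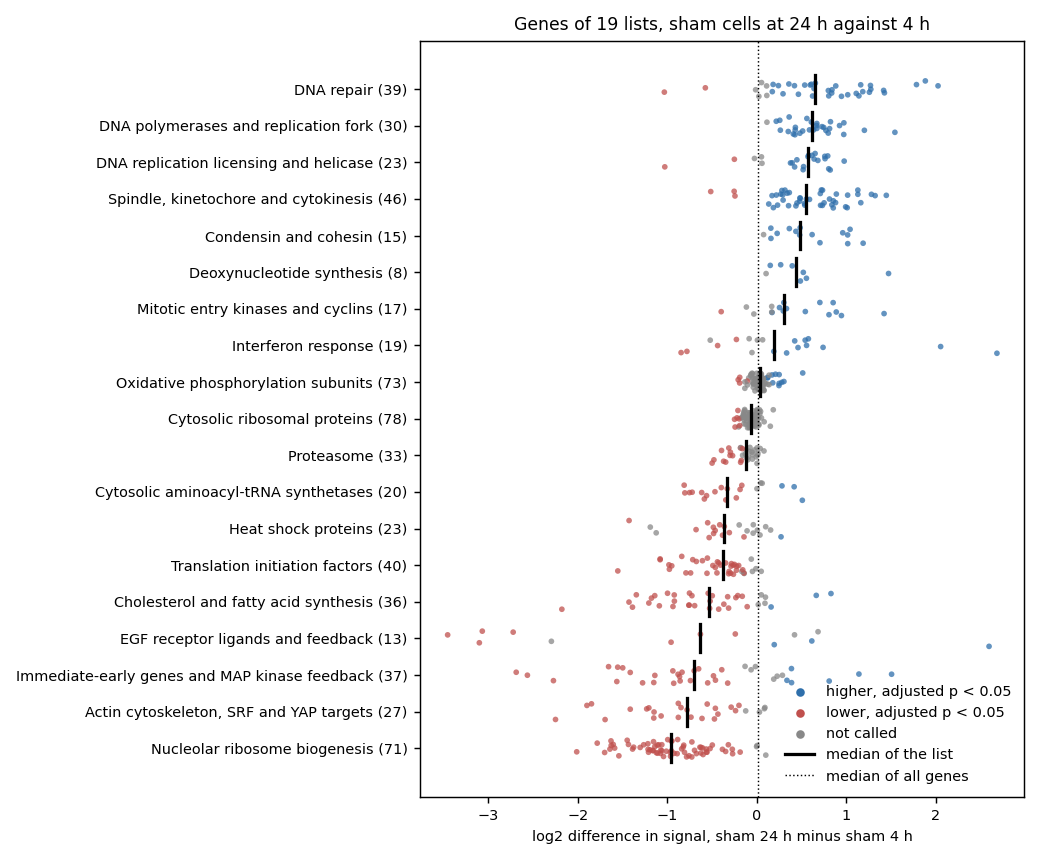
Log2 difference between sham at 24 h and sham at 4 h (x axis) for each tested gene of 19 lists (rows, with the number of genes). Points are genes, blue where called higher, red where called lower and grey where not called, bars are list medians and the dotted line is the median of all genes (0.011). The lists run from a median of 0.66 for DNA repair to -0.96 for nucleolar ribosome biogenesis, and on the spike-in scale all medians are higher, those from ribosomal proteins down to cholesterol synthesis then being above 0.

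Ribosome building moved against the division cycle. Of the 71 genes of nucleolar ribosome biogenesis, 68 fell (95.8%, against 35.4% of all genes) and the others were not called, with 33 lower by at least 2-fold (8.31% of all genes) and a median of -0.96, which was -0.34 on the spike-in scale. Rrp12, needed to export and mature ribosomal subunits, lay at 4.64, 4.67, 4.51 and 4.48 on the arrays of 4 h and at 2.60, 2.62, 2.62 and 2.43 on those of 24 h. It fell 4.03-fold (SE 0.075, adjusted p = 7.66e-15 from limma), and its mean at 0 h was 2.19. Rrp9, which binds the U3 RNA, fell by 1.78, Rrs1 by 1.70, the helicase gene Ddx21 by 1.64, Utp18 by 1.63 and Noc3l by 1.63.

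Translation factors fell with them by less. Of 40 initiation factor genes 34 fell and the others were not called (median -0.38, but 0.25 on the spike-in scale). Eif3j1 fell by 1.55, Eif6, which keeps the subunits apart, by 1.08, Eif1a by 1.08, the cap-binding factor gene Eif4e by 0.98, Eif2b1 by 0.98 and Eif5 by 0.95. Of 20 cytosolic aminoacyl-tRNA synthetases 14 fell and 3 rose (median -0.34, but 0.29 on the spike-in scale). Among these Nars, Rars, Tars and Farsa fell by 0.81, 0.80, 0.75 and 0.72. The ribosomal proteins themselves moved little. Of 78, 6 fell and the others were not called, with a median of -0.069 that turned positive on the spike-in scale (0.55) and with the percentile over probes detected on all arrays (0.062). This count depended on replicate 4 of 4 h, where the list median was -0.34 relative to the mean of both times, against 0.15 to 0.17 on the other 3 arrays of its group. Without it 39 of 78 fell, and in a fit of the 8 arrays with the replicate number as a block none was called.

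**Figure D3:**
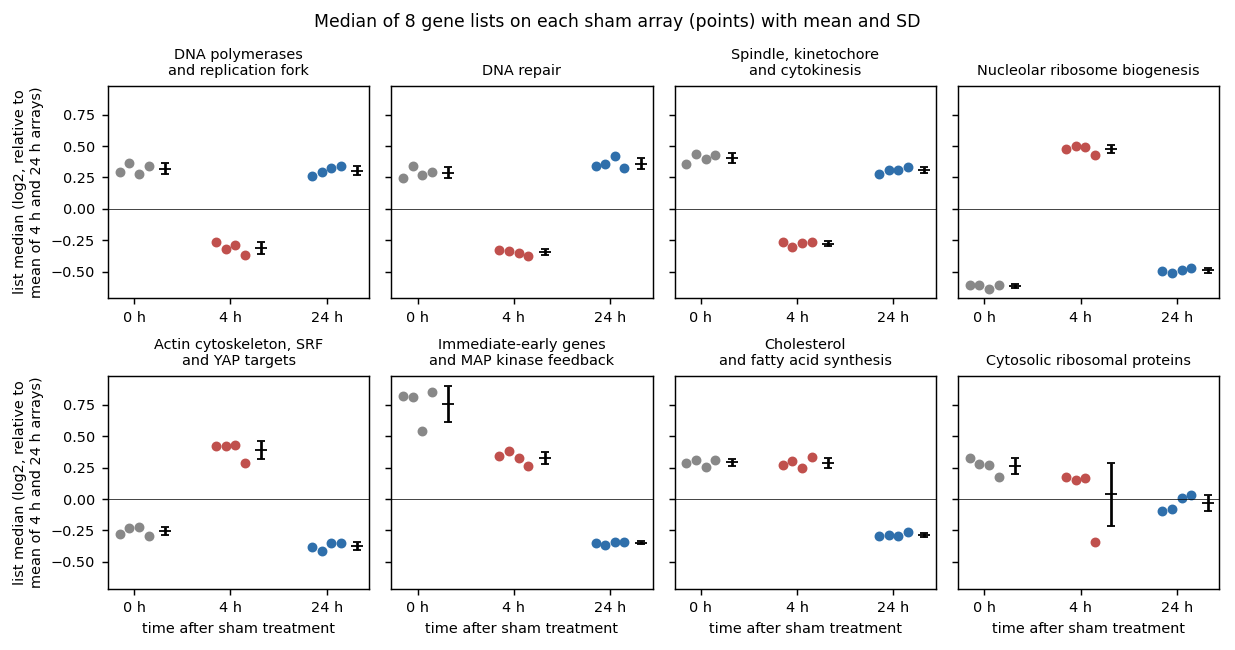
Median of 8 gene lists on each sham array at 0 h, 4 h and 24 h (points, 4 arrays each), on the log2 scale relative to each gene's mean over the 4 h and 24 h arrays, with mean and SD beside them. The 4 h and 24 h arrays do not overlap in 7 panels, and for ribosomal proteins replicate 4 of 4 h lies below all other arrays. The values are on the 75th percentile scale, and on the spike-in scale, which raises all 24 h values, the median differences of cholesterol synthesis and ribosomal proteins are above 0 (0.089 and 0.55).

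Immediate-early genes were lower at 24 h relative to the median of all genes. Of 37 immediate-early and MAP kinase feedback genes 25 fell and 6 rose (median -0.70). On the spike-in scale they were 14 higher and 16 lower, with a median of -0.075. Fosl1, a late-acting member of the Fos family, lay at 5.15, 5.28, 5.16 and 4.89 at 4 h and at 2.87, 2.95, 2.87 and 2.71 at 24 h, and its mean at 0 h was 2.14. It fell 4.83-fold (SE 0.088, adjusted p = 1.33e-14 from limma). The MAP kinase phosphatase gene Dusp5 fell by 2.69, Egr3 by 2.56, the receptor kinase inhibitor gene Spry2 by 1.66, Klf4 by 1.56 and Nr4a1 by 1.55. Klf4 had means of 5.00, 3.58 and 2.01 at 0, 4 and 24 h, and Nr4a1 had means of 6.62, 3.08 and 1.53. The ligands of the EGF receptor and their feedback inhibitors held some of the largest falls, with 7 of 13 lower and 3 higher (53.9% and 23.1%, against 35.4% and 35.3% of all genes). On the spike-in scale the list was 6 higher and 5 lower, with a median of -0.0056. Hbegf, a membrane-anchored ligand, had log2 signals of 2.83, 3.06, 2.84 and 2.95 at 4 h and -0.15, -0.17, -0.18 and -0.21 at 24 h. This was a fall of 3.10 (8.57-fold, SE 0.091, adjusted p = 2.62e-16). Ereg fell by 3.07, and Errfi1, an inhibitor of the receptor, by 2.72. Areg was well above background on all arrays of 4 h and on none of 24 h, at least 10.2-fold lower. Another ligand went the other way, Epgn being at least 5.03-fold higher, and the ligand gene Nrg1 fell by 0.96.

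Genes of the actin cytoskeleton and targets of SRF and YAP, which respond to spreading and tension, fell. Of 27 genes 23 were lower and the others were not called, with a median of -0.78 (-0.15 on the spike-in scale). The YAP target gene Ankrd1 lay at 4.33, 4.37, 4.30 and 4.14 at 4 h and at 2.35, 2.44, 2.43 and 2.33 at 24 h. It fell 3.72-fold (SE 0.075, adjusted p = 1.87e-14), and its mean at 0 h was 1.97. Ccn2, another YAP target, fell by 1.85, the smooth muscle genes Cnn1 and Tagln by 2.25 and 1.69, the fibronectin receptor gene Itga5 by 1.41 and Srf itself by 1.23. Of 11 tubulin genes 8 fell, among them Tubb6 by 0.74, and Tubg1, of the centrosome, rose by 0.60. Tuba1c fell by 0.78 on its brightest probe, but by 0.22 and 0.23 on its other tested probes. The tubulin median was -0.27, but 0.35 on the spike-in scale. The matrix list was mixed, 18 higher and 16 lower of 41 (43.9% and 39%, against 35.3% and 35.4% of all genes), and 29 higher and 7 lower on the spike-in scale. In it Tnc, a matrix glycoprotein of wounds, fell by 3.19 (SE 0.23, adjusted p = 2.35e-10), and Thbs1, Timp1 and Timp3 by 1.31, 1.23 and 1.18, while elastin, Eln, was at least 3.07-fold higher.

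In the list of NF-kB targets and cytokines, 14 of 29 genes fell and 8 rose (48.3% and 27.6%, against 35.4% and 35.3% of all genes). Beside Serpinb2, the colony-stimulating factor gene Csf3 fell by 3.26 and the cytokine gene Il11 by 2.56 (SE 0.23, adjusted p = 5.08e-09), and Csf2 was at least 3.92-fold lower. The list median of -0.14 became 0.48 on the spike-in scale. For the interferon response 10 of 19 genes rose and 4 fell (52.6% and 21.1%), and the median was 0.19 (0.81 on the spike-in scale). Ifit2 rose by 2.68, and Tap1, a peptide transporter, by 2.06, while Ifi35 and Gbp2 fell by 0.84 and 0.78. In TGF-beta and BMP signalling 16 of 30 fell and 9 rose (53.3% and 30%, median -0.26, but 0.36 on the spike-in scale). Inhba, the subunit of activin A, lay at 2.65, 2.82, 2.67 and 2.83 at 4 h and at -0.51, -0.50, -0.60 and -0.52 at 24 h. It fell 9.67-fold (SE 0.056, adjusted p = 1.57e-19). The inhibitors Smad7 and Nog fell by 1.92 and 1.96, and the ligand genes Bmp4 and Tgfb3 rose by 1.87 and 1.75.

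Stress genes fell in part. Of 26 Nrf2 targets and metallothioneins 16 fell and 1 rose (median -0.31, but 0.31 on the spike-in scale). Heme oxygenase, Hmox1, lay at 5.04, 5.05, 4.99 and 4.96 at 4 h and at 3.46, 3.38, 3.44 and 3.43 at 24 h. It fell by 1.58 (SE 0.06, adjusted p = 1.1e-14), and its mean at 0 h was 3.43. Srxn1, Osgin1 and Txnrd1 fell by 1.59, 1.61 and 1.03. Of 23 heat shock genes 12 fell and 1 rose (median -0.36, but 0.26 on the spike-in scale), with Cryab, a small heat shock protein, lower by 1.43 and Hsph1 by 0.68. In the integrated stress response 19 of 32 fell and 6 rose (59.4% and 18.75%, against 35.4% and 35.3% of all genes). The median was -0.19, but 0.43 on the spike-in scale. The amino acid transporter genes Slc7a11, Slc7a1 and Slc7a3 fell by 1.47, 1.35 and 1.21. The unfolded protein response of the endoplasmic reticulum was mixed, 8 higher and 6 lower of 21 (38.1% and 28.6%, against 35.3% and 35.4% of all genes). On the spike-in scale it was 19 higher and 1 lower. The sensor gene Ern1 fell by 1.62 and the chaperone cofactor gene Sdf2l1 rose by 1.26.

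Genes of cholesterol and fatty acid synthesis were lower at 24 h than at both earlier times by the list median on the percentile scale. Of 36 genes 29 fell and 3 rose from 4 h to 24 h, with a median of -0.53 (0.089 on the spike-in scale). The median difference between 24 h and 0 h was also -0.53, which is smaller than the spike-in shift between these times. Hsd17b7, a reductase of cholesterol synthesis, lay at 3.69, 3.87, 3.77 and 3.90 at 4 h and at 1.59, 1.67, 1.71 and 1.56 at 24 h, and its mean at 0 h was 2.81. It fell 4.52-fold from 4 h (SE 0.055, adjusted p = 3.08e-17 from limma). Cyp51 and Idi1 fell by 1.43 and 1.39, and Lss by 1.18. At 24 h Hsd17b7 was 1.18 below its 0 h mean (adjusted p = 1.48e-12).

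Other metabolic lists moved less or in both directions. Of 73 subunits of oxidative phosphorylation 11 rose and 4 fell (median 0.032). These shares, 15.1% and 5.48%, are below the 35.3% and 35.4% of all genes. Ndufs7 of complex I was higher by 0.51. Without replicate 4 in all groups 6 rose, and on the spike-in scale all 73. In glycolysis and the hypoxia response 8 rose and 9 fell of 31 (25.8% and 29%, below the 35.3% and 35.4% of all genes, but 23 higher and 2 lower on the spike-in scale), Pfkm rising by 1.12 and Hk2 and the glucose transporter gene Slc2a1 falling by 1.10 and 0.77. Polyamine genes fell in 5 of 9 cases and rose in 1 (55.6% and 11.1%, against 35.4% and 35.3% of all genes). Their median was -0.42, but 0.20 on the spike-in scale. Odc1, the first enzyme of the pathway, was lower by 1.27, Smox by 1.46, Sat1 by 1.38 and Srm by 1.23. Of 33 proteasome genes 13 fell (39.4%, close to the 35.4% of all genes) and the others were not called, with a median of -0.12 that was positive on the spike-in scale (0.50), after quantile normalization (0.038) and with the percentile over probes detected on all arrays (0.012). Autophagy and lysosome genes rose in 12 and fell in 15 of 38 cases (31.6% and 39.5%, close to all genes, but 30 higher and 3 lower on the spike-in scale), Wipi1 by 1.34 upward and Sqstm1, the autophagy receptor gene, by 1.16 downward.

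Among FoxO and insulin signalling genes 9 of 23 rose and 8 fell (39.1% and 34.8%, close to the shares of all genes, but 15 higher and 3 lower on the spike-in scale). Txnip, an inhibitor of glucose uptake, lay at 0.34, 0.062, 0.19 and 0.13 at 4 h and at 2.15, 1.95, 2.03 and 1.93 at 24 h. It rose by 1.83 (SE 0.075, adjusted p = 7.45e-14), and its mean at 0 h was 2.98. Pik3ip1 and Insr, the insulin receptor gene, rose by 1.38 and 1.21. Of 18 clock genes 10 fell and 6 rose (55.6% and 33.3%, against 35.4% and 35.3% of all genes). Their median was -0.46, but 0.17 on the spike-in scale, and Dbp, an output of the loop, was higher by 1.45. For Per2, a repressor of the loop, the brightest probe fell by 1.57 and another rose by 0.61. In the list of cold-inducible RNA-binding proteins and splicing factors 10 of 15 fell and 2 rose (median -0.38, but 0.24 on the spike-in scale), with Srsf6 lower by 0.82 and Cirbp higher by 1.19. Hosts of small nucleolar RNAs and other noncoding RNAs fell in 9 of 13 cases, the others not being called (median -0.38, but 0.24 on the spike-in scale), for example Snhg12 by 1.07 and Snhg1 by 1.05. In the Notch pathway 2 rose and 2 fell of 7 (28.6% each, below the 35.3% and 35.4% of all genes). On the spike-in scale 5 were higher and 1 lower. Notch3 rose by 1.31 and Hes1 fell by 1.31.

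**Figure D4:**
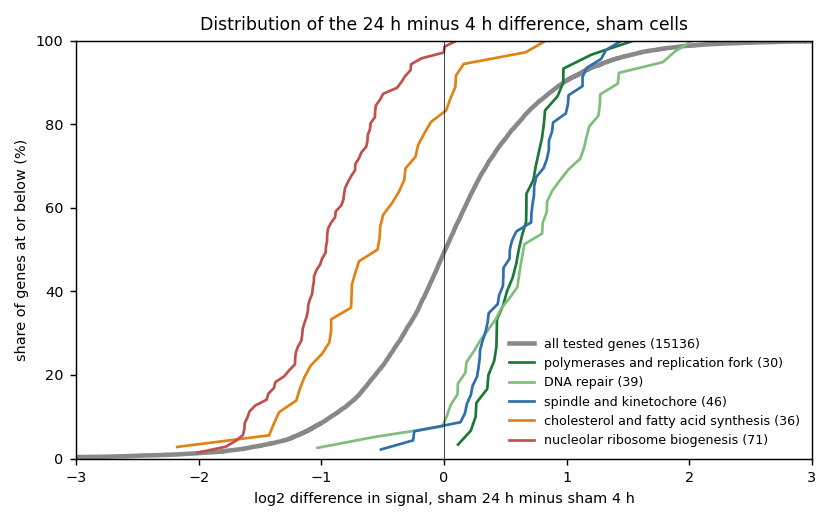
Cumulative share of genes (y axis, %) against the log2 difference between sham at 24 h and sham at 4 h (x axis) for all 15136 tested genes and 5 lists. At the 50% level the curves of polymerase, repair and spindle genes lie to the right of that of all genes and those of cholesterol synthesis and ribosome biogenesis to the left, and on the spike-in scale, on which the median of all genes is 0.63, that of cholesterol synthesis is 0.089.

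The labelled cell type was checked against its markers. Of 20 Leydig markers on the array, 12 were well above background on all 8 arrays, and 6 on none, among them Cyp11a1, Hsd3b1, Hsd3b6, Hsd17b3 and Lhcgr. The side-chain cleavage enzyme of steroid synthesis (Cyp11a1) and the receptor for luteinizing hormone (Lhcgr), which define steroid-producing Leydig cells, were thus not measurable at either time, while Nr5a1, Star and Cyp17a1 were. The summed level of the list was 96.0 to 101 times the 75th percentile at 4 h and 85.6 to 86.7 at 24 h. Its largest parts were Por and Pdgfra, with log2 means of 4.88 and 4.43 at 4 h. Cyp17a1, Nr5a1 and Star, at 1.23, -2.48 and -2.79, added little to it. The sum therefore says little on Leydig identity. It also covers 20 genes and cannot be set against the sums of the shorter lists of other cell types. Star, which brings cholesterol into mitochondria, lay at -2.96, -2.40, -2.87 and -2.91 at 4 h and at -4.26, -4.02, -4.44 and -4.47 at 24 h. It fell by 1.51 (SE 0.13, adjusted p = 4.24e-09 from limma), although still measured on all arrays. Fdxr, which passes electrons to the mitochondrial steroid enzymes, went the other way, from 0.95, 0.95, 0.92 and 1.04 to 2.83, 2.91, 2.90 and 3.05. This was a rise of 1.96 (SE 0.052, adjusted p = 1.92e-16). Of 13 tested markers 1 rose and 7 fell (7.69% and 53.85%, against 35.3% and 35.4% of all genes). Por, Nr2f2, Nr5a1, Scarb1 and Gata6 fell by 0.72, 1.04, 0.46, 0.21 and 0.16, and Hsd11b1, well above background on 1 of 4 arrays of 24 h, by 1.33. The falls of Nr5a1, Scarb1 and Gata6 were under the spike-in shift and had positive values on that scale (0.16, 0.41 and 0.46), and that of Gata6 also after quantile normalization (0.033). The other 5 were not called. Cyp17a1 of androgen synthesis differed by -0.34 (SE 0.16, adjusted p = 0.0603), which was 0.28 on the spike-in scale, and Fdx1, Gata4, Pdgfra and Tspo by -0.045, 0.062, -0.021 and -0.013, with signs that changed with the scaling.

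Markers of other cell types gave sums of 12.1 to 15.1 at 4 h and 18.3 to 20.8 at 24 h for Sertoli cells, 8.23 to 10.1 and 7.86 to 8.05 for macrophages, 0.561 to 0.759 and 0.83 to 0.905 for germ cells and 0.0967 to 0.106 and 0.167 to 0.197 for endothelial cells. Never well above background were 3 of 8 Sertoli, 2 of 9 macrophage, 1 of 9 germ cell and 5 of 7 endothelial markers. In these lists 1 and 2 of 3, 1 and 2 of 5, 1 and 1 of 5 and 1 and 0 of 1 tested genes were higher and lower. With so few genes these counts cannot be weighed against the 35.3% and 35.4% of all genes. Of the macrophage genes Adgre1 and Cx3cr1 were at background, while Itgam, Csf1r, Cd14, Cd68 and Mrc1 were well above it on all arrays. Mrc1 fell by 1.29, and Cd14 and Cd68 were not called. The probes of Csf1r disagreed, with a fall of 2.15 for the brightest and a rise of 0.46 for another. Those of Itgam disagreed too, with a rise of 0.32 for the brightest and a fall of 1.52 for another. Wt1, a Sertoli marker that made up most of that sum, rose by 0.59, and Sox9 and Rhox5 fell by 1.59 and 1.00. In the germ cell list Zbtb16 rose by 1.54 and Prm2 fell by 0.78. Pecam1, the 1 endothelial gene, rose by 1.07. The part of other cells in the gene differences was not tested.

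The same interval was measured in nsPEF-exposed cells, on other arrays of the same slides. These arrays had more non-uniform spots, 180 to 347 at 4 h and 282 to 443 at 24 h, against 52 to 73 and 71 to 112 for sham. Fewer of their probes were well above background, 51.63% to 56.31% and 52.93% to 57.75%, against 57.87% to 62.25% and 59.18% to 61.17%. The part of this in the values below was not tested. On the nsPEF arrays the spike-in RNA lay 1.35 to 1.64 above the 75th percentile at 4 h and 1.03 to 1.23 at 24 h. For sham its means were 1.70 and 1.08. Spike-in scaling would therefore move the sham and nsPEF medians by different amounts. The medians below are on the percentile scale. Whether a change is larger in sham or in exposed cells was not tested on the spike-in scale. The median difference from 4 h to 24 h in these cells was 0.72 for polymerases and fork (0.62 in sham), 0.83 for DNA repair (0.66), 0.67 for the spindle list (0.55), -0.84 for ribosome biogenesis (-0.96), -0.74 for actin, SRF and YAP targets (-0.78) and -0.69 for cholesterol synthesis (-0.53). Against 0 h, the sham medians at 24 h were 0.021, 0.068, -0.14, 0.15, -0.12 and -0.53 for the same lists. They share the 24 h arrays with the medians from 4 h, and all are smaller in size than the spike-in shift from 0 h to 24 h. A difference between sham and nsPEF in the change from 4 h to 24 h was called by limma for 92 of 15136 genes (0.608%), or 142 probes, with 4965 probes at an unadjusted p under 0.05. The fall of Serpinb2 was 4.85 in sham cells against 5.30 in exposed cells (adjusted p of the difference = 0.0276) and that of Ccn2 1.85 and 2.24 (0.0402). This count is not stable. Without 1 replicate number in all groups it was 0 to 6 probes, and with array quality weights 1150.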

How the data were processed

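RNA of 24 TM3 samples (sham or nsPEF at 0, 4 and 24 h, 4 each) was hybridised to Agilent 1-colour arrays on 3 slides, 1 for each time. Spot intensity values, as deposited, were the processed signals of Agilent Feature Extraction 12.0, with the local background subtracted by the authors' scanner software. The authors' own log2 values in the deposited series table, shifted to the 75th percentile and set to a median of 0 for each probe, were used as an alternative. Spots marked as outliers and control spots were left out. From the intensities, log2 values minus the 75th percentile of the non-control spots of each array were computed, spots of a probe were averaged, and 6 group means over all 24 arrays were fitted with limma 3.58.1 (R 4.3.3), with empirical Bayes moderation and Benjamini-Hochberg adjustment over all tested probes. The threshold was an adjusted p of 0.05. The methods' analysis of variance without moderation was an alternative. Symbols came from a match of 34566 of 56605 probes (61.1%) to RefSeq through their accessions, and the names of multiple-probe genes rest on the brightest tested probe. Of 5512 genes with several tested probes, 223 had probes called in opposite directions. Named were the 12 largest rises and falls among genes above background on all arrays with no overlap between groups, the 5 largest bounds each way, up to 6 called members of a list with the largest differences, and the Leydig markers, and a few genes so chosen are not reported here. For lists these were chosen from 41 lists, of which 1128 of 1138 symbols were on the array. Members and lists were chosen with earlier results of these data known. The methods were tested on simulated data. Spike-in scaling, quantile normalization, normexp background correction on the median spot signal (offset 50), other filters, blocks and weights, and leaving out arrays were the alternatives. The number of arrays limits the precision. The labels call the samples biological replicates.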

Additional observations from a re-analysis of the deposited data

Results flagged for a closer look

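A value was taken to stand apart where its gap to the nearest other array of its group of 4 passed Dixon's critical share of the group's range. Chance gives about 1 such group in 20, and 37 of 393 groups tested (9.41%) had one. The 75th percentile intensity of replicate 4 of 4 h was 787 against 455 to 473 on the other 3 arrays. On replicate 1 of 4 h the log2 signals that stood apart were Cdkn1a 1.88 (others 2.08 to 2.11), Nipal1 -1.16 (others -0.89 to -0.85), Plet1 0.92 (others 1.09 to 1.12) and Sh3gl3 -1.34 (others -1.90 to -1.82). On replicate 2 of 4 h the log2 signals that stood apart were Hsph1 3.98 (others 3.83 to 3.86), Star -2.40 (others -2.96 to -2.87) and Tap1 -2.14 (others -2.44 to -2.44). On replicate 3 of 4 h the log2 signals that stood apart were Eif5 4.86 (others 4.77 to 4.78) and Esco2 -1.09 (others -2.24 to -2.05). On replicate 4 of 4 h the log2 signals that stood apart were Aspm 1.28 (others 1.47 to 1.5), Csf1r 1.38 (others 1.59 to 1.64), Nrg1 3.37 (others 3.16 to 3.19), Orc2 2.37 (others 2.45 to 2.46), Pecam1 -4.24 (others -4.05 to -4.02), Rars 4.56 (others 4.77 to 4.80), Rrm1 3.61 (others 3.68 to 3.70), Tuba1c 6.96 (others 7.60 to 7.72) and Tyms 3.96 (others 4.05 to 4.07). On replicate 1 of 24 h the log2 signal that stood apart was Txnrd1 4.55 (others 4.61 to 4.62). On replicate 2 of 24 h the log2 signals that stood apart were Osgin1 -0.16 (others 0.024 to 0.059) and Tagln -0.14 (others -0.69 to -0.63). On replicate 3 of 24 h the log2 signal that stood apart was Mastl -0.41 (others -0.30 to -0.30). On replicate 4 of 24 h the log2 signals that stood apart were Cdc25c 1.32 (others 1.22 to 1.24), Cyp51 2.59 (others 2.35 to 2.38), Dut 3.52 (others 3.73 to 3.76), Ereg 0.60 (others 0.82 to 0.86), Gm12522 -0.81 (others -1.33 to -1.26), Kcnn4 -3.06 (others -3.35 to -3.33), Ncapg2 2.70 (others 2.97 to 3.01), Notch3 0.91 (others 0.79 to 0.81), Nr5a1 -2.77 (others -3.01 to -2.99), Rad54l 0.83 (others 0.88 to 0.89), Rrp12 2.43 (others 2.60 to 2.62), Sqstm1 4.66 (others 4.49 to 4.52), Tifa -0.56 (others -0.31 to -0.28) and Wt1 4.17 (others 4.33 to 4.35). Replicates 4 of both times held most of these values.

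The change from 4 h to 24 h differed between sham and nsPEF cells, by limma's interaction test, for Serpinb2 (0.45, from -4.85 in sham and -5.30 in nsPEF, adjusted p = 0.0276) and Ccn2 (0.39, from -1.85 in sham and -2.24 in nsPEF, adjusted p = 0.0402), both on the log2 scale. On the percentile scale the falls were in the same direction in both and deeper in nsPEF cells, whose arrays had fewer probes well above background.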

How the results depend on the processing

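Scaling moved the most. On the spike-in scale 10686 genes were higher and 1457 lower, and 2408 probes depended on the treatment. The numbers of members called lower were then 45 for ribosome biogenesis, 0 for ribosomal proteins, 0 for aminoacyl-tRNA synthetases, 8 for initiation factors, 3 for integrated stress response, 1 for heat shock, 4 for Nrf2 targets, 16 for immediate-early genes, 12 for cholesterol synthesis, 2 for glycolysis, 0 for proteasome, 3 for autophagy, 12 for actin, SRF and YAP targets, 0 for tubulins, 8 for TGF-beta signalling, 3 for clock, 0 for splicing factors, 3 for noncoding RNAs and 2 for Leydig markers, and those called higher 19 for the unfolded protein response, 29 for the matrix, 15 for FoxO signalling and 73 for oxidative phosphorylation. With the percentile over probes detected on all arrays, 0 ribosomal proteins, 8 proteasome genes and 5 tubulins were lower, and 13 genes of the unfolded protein response and 41 of oxidative phosphorylation higher. After quantile normalization 22 ribosomal proteins and 6 proteasome genes were lower, 52 genes of oxidative phosphorylation higher and 250 probes dependent on the treatment. The number of ribosomal proteins lower was 32 with the deposited log2 values, 14 after normexp, 3 in a fit of the 8 arrays, 42 with array quality weights and 16 with the mean of a gene's probes. Quality weights gave 22 proteasome genes and 1150 probes dependent on the treatment, a fit with no moderation of the spread 270 such probes, normexp 25 and no filter on dim probes 34. With the outer rows of the arrays left out, 3 genes of the unfolded protein response were higher and 4 Leydig markers lower. Leaving out 1 array or replicate number gave 0 to 42 ribosomal proteins, 9 to 20 proteasome genes, 6 to 13 genes of oxidative phosphorylation and 0 to 186 probes dependent on the treatment. The log2 difference in the 75th percentile between the times ran from -0.22 to 0.048 (without replicate 4 of 4 h) and that in the share of probes well above background from -0.10 (without replicate 3 of 4 h) to 1.36 percentage points (without replicate 4). The cause of these shifts was not tested.

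Relative to all genes, the median of FoxO signalling was -0.0064 with a filter of 2 of 4 arrays and -0.024 with none, and that of the unfolded protein response -0.0042 with no filter and -0.071 without the outer rows. The sign of the relative median also changed in some alternatives for glycolysis, oxidative phosphorylation, autophagy, the matrix (all close to 0 as reported) and, without the outer rows, germ cell markers (-0.29 to 0.83). Glycolysis was at -0.062 with the deposited values and -0.074 without replicate 4 of 4 h. Sign changes of named genes were limited to Leydig markers. On the spike-in scale Cyp17a1 was at 0.28, Fdx1 0.58, Gata6 0.46, Nr5a1 0.16, Pdgfra 0.60, Scarb1 0.41 and Tspo 0.61. After quantile normalization Fdx1 was at 0.10, Gata4 -0.032, Gata6 0.033, Pdgfra 0.21 and Tspo 0.16, and with the percentile over detected probes Fdx1 was at 0.085, Pdgfra 0.11 and Tspo 0.12. Pdgfra was at 0.034 after normexp. Leaving out an array or replicate number gave -0.088 to 0.0081 for Fdx1, -0.057 to 0.015 for Pdgfra and -0.057 to 0.025 for Tspo.

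By the study's account the tests of a biological replicate shared a cell suspension, but the labels do not tie the array numbers to it. The deviations of same-numbered 4 h and 24 h arrays correlated at 0.024, 0.060, 0.047 and 0.072, under the 0.1 set for pairing, while every array correlated best with its own number, so the pairing is not settled. With the replicate block, 5404 genes were higher and 5410 lower, 180 probes depended on the treatment, and in a blocked fit of the 8 arrays 5323 and 5262 genes were called, with 0 ribosomal proteins lower. Signal over background limits dim probes, for which folds are lower bounds, and 4 arrays a group limit small differences.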
